A study of Mus musculus with 10 samples.

Results

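The genes described here are 10 members of the fibroblast growth factor (FGF) family and its receptors, chosen by name out of the 54532 genes of the table: the extracellular ligands *Fgf1*, *Fgf2* and *Fgf9*, the intracellular homologous factors *Fgf12*, *Fgf13* and *Fgf14*, and the receptor tyrosine kinases *Fgfr1*, *Fgfr2*, *Fgfr3* and *Fgfr4*. They were measured by RNA-seq in 10 retinas of BALB/c mice, an albino strain whose eyes lack the pigment that shields the retina, at 2 months of age. Per the labels, animals of both groups first spent 12 hr in the dark. For 1 day, those of 5 retinas were then kept under normal light (NL, given as 200 lux) and those of the other 5 under high-intensity light that damages the retina (LD, 15000 lux). Both groups are otherwise untreated animals of the same strain, so the light intensity is what sets them apart in the labels. The study used the short exposure to look for factors that protect photoreceptors. The comparison asks which FGF genes differed in RNA level between the groups.

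FGF ligands outside the cell bind receptor tyrosine kinases together with heparan sulfate chains, and the receptors signal through adaptor proteins to the RAS and ERK cascade. FGF2 (basic FGF) is known as a survival factor for photoreceptors that is made in the retina after injury, and Müller glia and photoreceptors have both been described as its source. The homologous factors share the fold of the ligands but stay inside neurons, where they bind voltage-gated sodium channels and do not act through the receptors.

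The levels are FPKM, fragments scaled by gene length and by an adjusted library size, so genes can be compared with each other in this unit. Behind them stood 21343389 to 26832535 reads in each NL retina and 18965090 to 23378090 in each LD retina. All 10 genes reached at least 0.1 FPKM in at least 5 retinas, the limit for testing, although *Fgfr3* rested on only 11 to 27 reads per retina. Groups were compared in limma on log2(FPKM + 0.1), with p-values adjusted over the 24508 genes tested. Genes were called when the adjusted p was below 0.01 and the groups differed by more than 2-fold. Retinas are named by their label numbers, NL-1, NL-4, NL-5, NL-7 and NL-8, and LD-1, LD-4, LD-6, LD-7 and LD-8. The 3 closest pairs of retinas stood out from the rest, NL-5 with NL-7, LD-1 with LD-7 and LD-4 with LD-6, with a chi-square per gene of 2.65 to 3.65 between their reads against 12.2 to 43.4 for all other pairs of a group. They were above the sampling noise and were kept as separate samples, as labelled, and results that rest on such a pair are also given without it. The p-values measure the spread between these retinas. The paper calls the 5 samples of a group biological replicates, but does not state that every retina came from a separate mouse.

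One of the 10 genes, *Fgf2*, was called changed, where 6.51% of all genes tested were called, 4.13% higher and 2.37% lower after LD. At an adjusted p under 0.01 with no minimum for the fold change, 3 of the 10 genes differed, *Fgf2*, *Fgfr1* and *Fgfr4*, and all 3 rose. Over all genes 17.0% passed this limit, made up of 9.3% higher and 7.74% lower. *Fgf12* joined them below 0.05, a limit that 27.8% of all genes passed. The 5 LD values lay above the 5 NL values in the same 3 genes, and the groups overlapped in the other 7, where 22.4% of all genes tested had groups that did not overlap, 11.8% with LD above and 10.6% with LD below. The median log2 fold change of the 10 genes was 0.14, and that of all genes tested was -0.01.

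**Figure D1:**
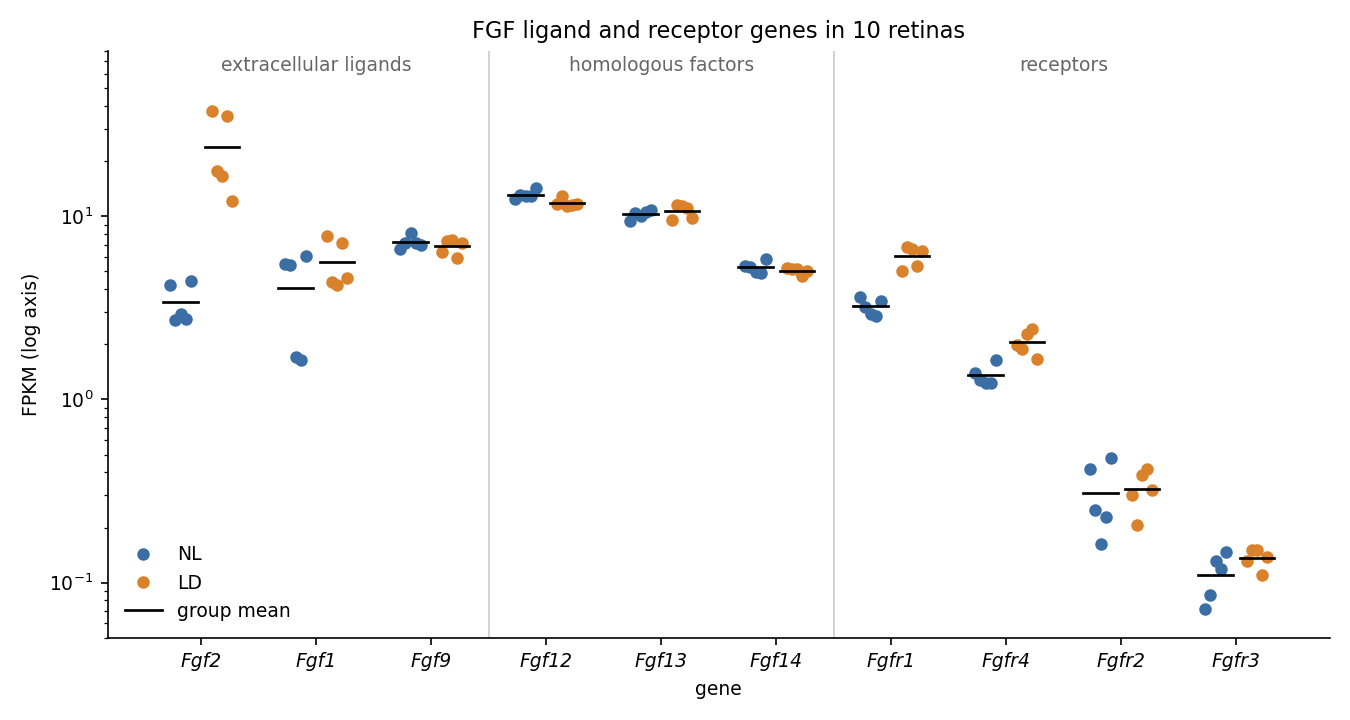
Level of each of the 10 FGF genes in FPKM (log axis) in every retina, with NL retinas in blue, LD retinas in orange and the group mean as a black line. *Fgf2*, *Fgfr1* and *Fgfr4* have every orange point above every blue one, and the 3 homologous factors hold levels between 4.69 and 14.2 FPKM in both groups.

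*Fgf2* lies on the plus strand of chromosome 3 from 37348346 to 37410108 (GRCm38). Its level was 4.23 FPKM in NL-1, 2.72 in NL-4, 2.92 in NL-5, 2.74 in NL-7 and 4.46 in NL-8. After LD it was 37.7 FPKM in LD-1, 17.6 in LD-4, 16.6 in LD-6, 35.0 in LD-7 and 12.1 in LD-8. The lowest LD retina was well above the highest NL retina, and LD-1 and LD-7, a close pair, stood above the other 3. The mean rose from 3.41 ± 0.857 to 23.8 ± 11.7 FPKM (SD, n = 5 retinas each), and the reads behind it from 392 to 780 per NL retina to 1831 to 6232 per LD retina. On the log2 scale the difference was 2.66 (standard error 0.31, limma adjusted p = 1.22e-04), a fold change of 6.32 with a 95% confidence interval of 3.92 to 10.2. A two-sided exact permutation test over the retinas gave p = 0.00794, the smallest this design allows, and 1 such test was run for each of the 10 genes. Without LD-1 and LD-7 the log2 fold change was 2.16 with an adjusted p of 1.18e-04, and over all 27 alternatives it stayed between 2.16 and 2.93 with adjusted p-values of 7.51e-05 to 0.00818.

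Part of the *Fgf2* gene is shared with its antisense neighbour. *Nudt6*, which encodes a nudix hydrolase and is known as the FGF2 antisense gene, runs on the opposite strand and shares 640 exonic bases with *Fgf2*, 9.44% of the exonic bases of *Fgf2* and 38.2% of those of *Nudt6*. The sources used here do not say whether reads were counted by strand, so reads in the shared bases cannot be assigned. *Nudt6* was at 0.725, 0.814, 1.23, 0.674 and 0.624 FPKM in NL-1, NL-4, NL-5, NL-7 and NL-8, and at 3.50, 1.76, 2.88, 3.30 and 3.38 FPKM in LD-1, LD-4, LD-6, LD-7 and LD-8. It rose by 1.74 on the log2 scale (standard error 0.22, limma adjusted p = 2.08e-04), with no overlap between the groups. Its 60 to 143 reads per LD retina were few beside those of *Fgf2*. LD-1 was highest for both genes, while LD-8, the lowest LD retina for *Fgf2*, was close to LD-7 for *Nudt6*.

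The other neighbour on the opposite strand, *Fgf2os*, shares no exonic base with *Fgf2*. It held 3.50 ± 0.425 FPKM in NL and 4.71 ± 2.24 in LD retinas (SD, n = 5 each), a limma difference of 0.30 on the log2 scale (standard error 0.27, adjusted p = 0.464). Its 2 high values, 7.60 FPKM in LD-1 and 6.61 in LD-7, fell in the retinas with the most *Fgf2* RNA, while LD-4, LD-6 and LD-8 held 2.67 to 3.65 FPKM. The remaining overlapping genes, *Gm43439* and *Gm42923*, had no reads in any retina.

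Short stretches of the *Fgf2* promoter are shown because the study dealt with NRF2, a stress factor that binds the antioxidant response element (ARE). Promoter windows (RefSeq, GRCm38.p6, 250 bases before to 50 after a start site) were found for 8 of the 10 genes, 15 windows in all, since some genes have several starts, while *Fgf1* and *Fgfr1* had none. The ARE core was searched as TGACNNNGC on both strands. It was found in 3 of the 15 windows, of *Fgf2*, *Fgf9* and *Fgfr3*, and in 12.4% of the 32851 promoter windows of all genes. The *Fgf2* window, chr3:37348403-37348702, holds it at 2 places, beginning 144 and 6 bases before the start, both inside an exon of a longer annotated transcript. Each line gives 30 bases on the gene's strand, 5′ to 3′, with the match in capitals (GCNNNGTCA is the same core read on the other strand).
Fgf2, chr3:37348499-37348528: aactttaggaGCTGCGTCAccgcagtctcc
Fgf2, chr3:37348637-37348666: ggacgcggggTGACGCGGCcccgggccgtt
Fgf9, chr14:58072612-58072641: ccgtaaattcTGACGTAGCccgagcatctt
Fgfr3, chr5:33721661-33721690: cgcccccgccTGACCACGCctcttcggatc
The windows with the core thus include 2 genes, *Fgf9* and *Fgfr3*, that did not pass the test, and the *Fgfr4* window, of a gene that did, holds no match. The AP-1 motif (TGACTCA or TGAGTCA) and the STAT motif (TTCNNNGAA) were not in the *Fgf2* window, and were in 5.20% and 8.30% of all windows. A match is a match of letters only.

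*Fgf1* encodes acidic FGF, which binds all of the receptors. The gene lies on the minus strand of chromosome 18 from 38838673 to 38929404, inside the opposite-strand gene *Arhgap26*. It was at 5.46 FPKM in NL-1, 5.39 in NL-4, 1.71 in NL-5, 1.64 in NL-7 and 6.05 in NL-8, and at 7.77 in LD-1, 4.39 in LD-4, 4.23 in LD-6, 7.15 in LD-7 and 4.61 in LD-8. The NL retinas were split, with the close pair NL-5 and NL-7 far below the others, and the LD retinas were split too, with LD-1 and LD-7 highest. The log2 fold change was 0.63 (standard error 0.40, limma adjusted p = 0.284), with a 95% confidence interval of -0.26 to 1.51, so a rise of the size seen in *Fgfr1* lay within it. Without NL-5 and NL-7 it was -0.047 (adjusted p = 0.913) and in the 6 retinas without *Xist*, of which NL-5 and NL-7 are part, it was 1.31 (adjusted p = 0.120), with adjusted p-values of 0.120 to 0.913 over the alternatives. *Arhgap26*, which encodes a GTPase activating protein, shares no exonic base with *Fgf1* and moved the other way, from 7.77 ± 0.250 to 5.88 ± 0.112 FPKM (SD, n = 5 each; log2 fold change -0.40, standard error 0.04, adjusted p = 6.21e-05).

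*Fgf9*, on the plus strand of chromosome 14 from 58070547 to 58112720, encodes a secreted ligand known in the eye for its part in laying out the neural retina. Its level was 6.63 to 8.11 FPKM in the NL retinas (median 7.13) and 5.93 to 7.42 in the LD retinas (median 7.14). The processed pseudogene *Gm17109* within it had at most 3 reads. The groups overlapped, and the log2 fold change of *Fgf9* was -0.07 with a 95% confidence interval of -0.25 to 0.10 (limma adjusted p = 0.533). The 2 lowest of the 10 retinas for *Fgf9* were LD-7 and LD-1, with 5.93 and 6.36 FPKM, the 2 retinas with the most *Fgf2* RNA.

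The make-up of the 3 ligands therefore differed between the groups. *Fgf2* made up 17.8% to 25.9% of their summed FPKM under NL and 50.8% to 72.8% after LD. The sum itself was 11.5 to 17.5 FPKM under NL and 23.9 to 51.8 FPKM after LD, with no overlap, and *Fgf9* went from the largest share in every NL retina (39.8% to 63.7%) to 12.3% to 29.9%. The share of *Fgf1* was 13.4% to 35.3% under NL and 14.9% to 19.3% after LD.

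**Figure D2:**
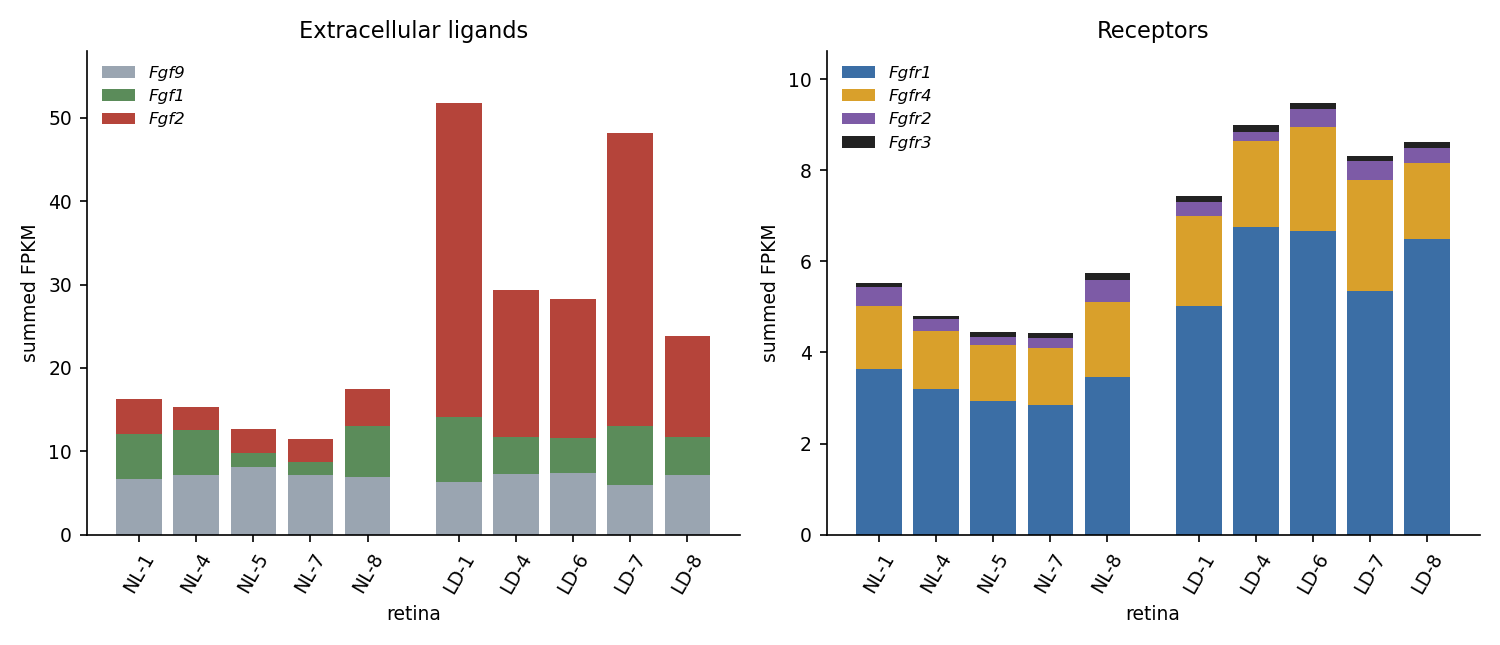
Summed FPKM of the 3 extracellular ligands (left) and of the 4 receptors (right) in each retina, stacked by gene, with both axes starting at 0. *Fgf2* is the largest block of every LD ligand bar and *Fgfr1* the largest block of every receptor bar.

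*Fgfr1* encodes a main receptor of FGF2, present in most tissues. It lies on the plus strand of chromosome 8 from 25513654 to 25575718. Its level was 3.64 FPKM in NL-1, 3.20 in NL-4, 2.94 in NL-5, 2.85 in NL-7 and 3.47 in NL-8, and 5.01 in LD-1, 6.76 in LD-4, 6.66 in LD-6, 5.35 in LD-7 and 6.49 in LD-8. No LD value reached down to the NL values, and LD-1 and LD-7, highest for *Fgf2*, were the 2 lowest LD retinas here. The mean rose from 3.22 ± 0.336 to 6.05 ± 0.812 FPKM (SD, n = 5 each). The limma difference was 0.89 on the log2 scale (standard error 0.11, adjusted p = 1.39e-04), a 1.85-fold difference with a 95% confidence interval of 1.57 to 2.17. The two-sided exact permutation p was 0.00794. The fold change was thus just under the limit of 2 for a call. It was above it without LD-1 and LD-7 (log2 fold change 1.03), and the adjusted p stayed between 3.31e-05 and 0.0107 over the alternatives. The antisense gene *Gm16159* shares 164 exonic bases with *Fgfr1* and had 2 to 14 reads per retina against 590 to 1472 for *Fgfr1*.

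*Fgfr4*, a receptor best known from the control of bile acid synthesis in the liver, lies on the plus strand of chromosome 13 from 55152640 to 55168759 and overlaps no other gene of the table. It was at 1.39, 1.28, 1.22, 1.24 and 1.64 FPKM in NL-1, NL-4, NL-5, NL-7 and NL-8, and at 1.98, 1.88, 2.28, 2.43 and 1.66 FPKM in LD-1, LD-4, LD-6, LD-7 and LD-8. The groups did not overlap, but LD-8 was only just above NL-8. The mean rose from 1.35 ± 0.174 to 2.05 ± 0.310 FPKM (SD, n = 5 each). The limma difference was 0.56 on the log2 scale (standard error 0.13, adjusted p = 0.00827), a 1.47-fold difference with a 95% confidence interval of 1.21 to 1.80. It was close to the threshold: the direction held in all 27 alternatives, but the adjusted p was under 0.01 in 10 of them and ranged from 0.00251 to 0.139.

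*Fgfr2* and *Fgfr3* were near the limit of measurement. *Fgfr2*, on the minus strand of chromosome 7 from 130162451 to 133123350 as annotated, was at 0.162 to 0.480 FPKM under NL (median 0.251) and at 0.205 to 0.417 FPKM after LD (median 0.322). *Fgfr3*, on the plus strand of chromosome 5 from 33721674 to 33737068, was at 0.0719 to 0.146 FPKM under NL (median 0.118) and at 0.110 to 0.152 FPKM after LD (median 0.138). Both pairs of groups overlapped, and the 95% confidence intervals of the log2 fold change, -0.46 to 0.67 for *Fgfr2* (limma adjusted p = 0.809) and -0.20 to 0.56 for *Fgfr3* (adjusted p = 0.496), are wide at this depth. That of *Fgfr2* holds the log2 fold change of *Fgfr4*, and that of *Fgfr3* ends close below it. The annotated span of *Fgfr2* takes in 69 other genes of the table, 45 of them tested, of which *Fam53b*, *Gpr26* and *Gm15718* passed an adjusted p under 0.01. Exonic bases that *Fgfr2* shares with these genes were not counted. For *Fgfr3*, the opposite-strand transcript *G630022F23Rik* shares 998 exonic bases and had at most 2 reads in a retina.

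Summed over the 4 receptors, the level was 4.44 to 5.73 FPKM under NL and 7.43 to 9.48 FPKM after LD. *Fgfr1* made up 60.4% to 66.5% of it under NL and 64.4% to 75.4% after LD, and *Fgfr4* 25.1% to 28.6% and 19.3% to 29.3%, so these shares overlapped where the levels did not.

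**Figure D3:**
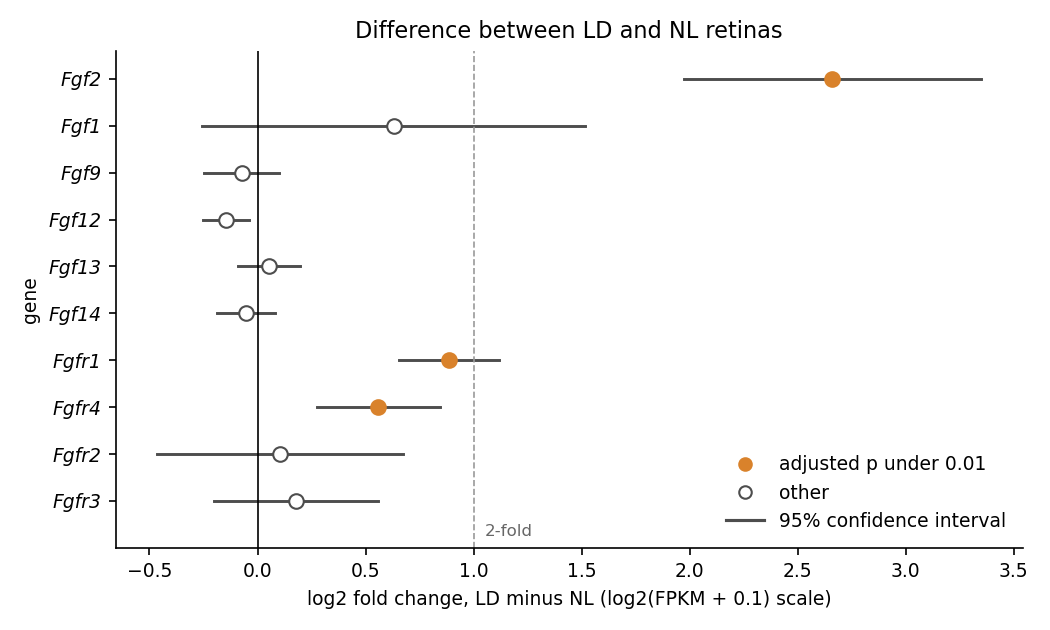
Difference between LD and NL for each of the 10 genes as the log2 fold change on the log2(FPKM + 0.1) scale, with its 95% confidence interval, filled where the adjusted p is under 0.01. *Fgf2* is alone to the right of the dashed line at 2-fold, the interval of *Fgfr1* crosses that line, and those of *Fgf9*, *Fgf13* and *Fgf14* are narrow around 0.

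*Fgf12* and *Fgf13* were the most abundant of the 10 genes under NL, and the 3 homologous factors varied least among the retinas of a group. *Fgf12*, on the minus strand of chromosome 16 from 28160098 to 28753068, was at 12.5, 13.1, 12.9, 12.9 and 14.2 FPKM in NL-1, NL-4, NL-5, NL-7 and NL-8, and at 11.7, 12.8, 11.4, 11.6 and 11.7 FPKM in LD-1, LD-4, LD-6, LD-7 and LD-8. In 4 of the 5 LD retinas it was below the lowest NL retina, LD-4 being the exception. Its log2 fold change was -0.15 (standard error 0.05), a level 0.904 times that under NL, with a limma adjusted p of 0.0449 and a two-sided exact permutation p of 0.0159, so it did not pass the limit of 0.01.

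*Fgf13*, on the minus strand of chromosome X from 59062145 to 59568071, was at 9.40 to 10.8 FPKM under NL (median 10.4) and at 9.55 to 11.6 after LD (median 11.1). The 95% confidence interval of its log2 fold change was -0.09 to 0.20 (limma adjusted p = 0.598). *Fgf14*, on the minus strand of chromosome 14 from 123977907 to 124677127, was at 4.88 to 5.81 FPKM under NL (median 5.26) and at 4.69 to 5.23 after LD (median 5.15), with an interval of -0.19 to 0.08 (adjusted p = 0.561). Both intervals leave out a change of the size of *Fgfr4*. The summed level of the 3 genes was 27.2 to 30.8 FPKM under NL and 26.5 to 29.5 FPKM after LD, and the coefficient of variation among retinas of a group was 4.22% to 8.61%, against 25.1% and 49.0% for *Fgf2*. They overlap 1, 4 and 7 other genes, among them *Mir690* in *Fgf12*, *Mir504* in *Fgf13* and *Gm28932*, which shares 220 exonic bases with *Fgf14*. None of these other genes had more than 8 reads in a retina.

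The order of the levels shifted with it. Under NL it ran from *Fgf12* at 13.1 FPKM through *Fgf13* at 10.2, *Fgf9* at 7.19, *Fgf14* at 5.26, *Fgf1* at 4.05, *Fgf2* at 3.41, *Fgfr1* at 3.22, *Fgfr4* at 1.35 and *Fgfr2* at 0.308 to *Fgfr3* at 0.111. Neighbours in this order did not overlap between retinas, except *Fgf14* with *Fgf1*, *Fgf1* with *Fgf2* and *Fgf2* with *Fgfr1*. The order within each of these pairs is within their spread. *Fgf14*, at 4.88 FPKM or more, was above every NL value of *Fgf2* (at most 4.46) and of *Fgfr1* (at most 3.64). After LD *Fgf2* stood first at 23.8 FPKM, above *Fgf12* in each of the 5 retinas, and *Fgfr1* at 6.05 FPKM came between *Fgf9* at 6.84 and *Fgf1* at 5.63. In that group *Fgfr1*, *Fgf1* and *Fgf14* were within each other's spread, and the ranges of *Fgf2* and *Fgf12*, of *Fgf12* and *Fgf13* and of *Fgf9* and *Fgfr1* overlapped although the first was higher in each retina. With 5 retinas, a two-sided exact sign-flip test of neighbours cannot go below p = 0.0625, so the order is given as a description.

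The LD retinas were not alike, and the FGF genes varied along the close pairs. In LD-1 and LD-7 *Fgf2* was at least 35.0 FPKM and *Fgf1* at least 7.15, with *Fgfr1* at most 5.35 FPKM. In LD-4 and LD-6 *Fgf2* was at most 17.6 and *Fgf1* at most 4.39, with *Fgfr1* at least 6.66 FPKM. LD-8 had the least *Fgf2*, 12.1 FPKM, with *Fgfr1* at 6.49. Reads of *Xist*, which is expressed in female cells, were 57965 to 89680 in NL-4, NL-8, LD-4 and LD-6 and 3 to 43 in the other retinas, and the labels used here give no sex. In the 6 retinas without *Xist*, an alternative added after the values were seen, the log2 fold change of *Fgf2* was 2.93 (adjusted p = 0.00726), that of *Fgfr1* 0.82 (adjusted p = 0.0106) and that of *Fgfr4* 0.61 (adjusted p = 0.0597), so that *Fgf2* alone passed 0.01. Over all 10 retinas, the 3 protein-coding genes whose deviations from the group means were most like those of *Fgf2*, of 12427 with a mean of at least 1 FPKM, were *Golt1b*, *Mocs1* and *Cdk17*, with Pearson's r of 0.99, 0.98 and 0.98. These values rest largely on the distance of LD-1 and LD-7 from the other LD retinas and are a description.

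**Figure D4:**
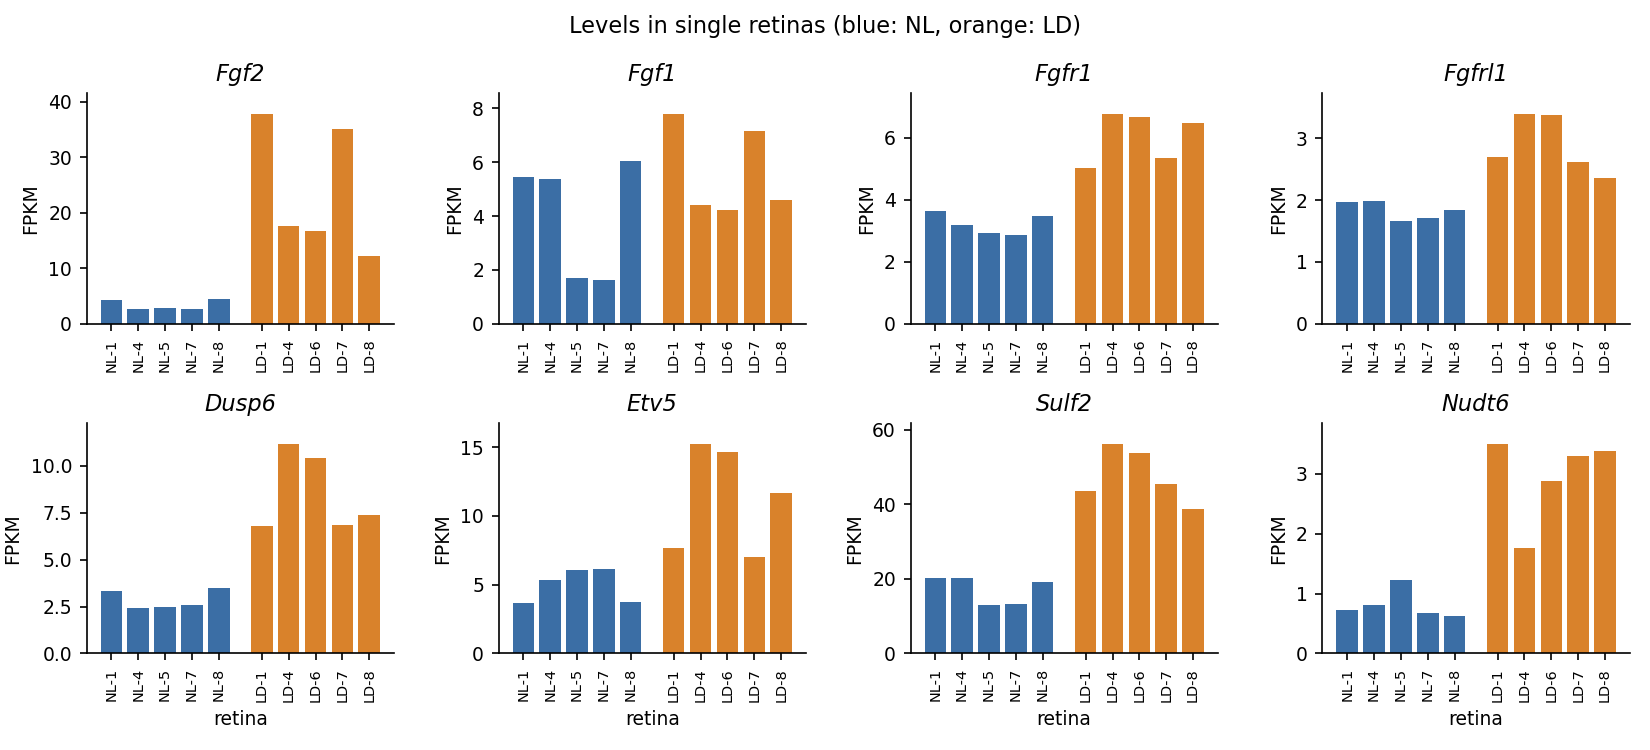
FPKM in each retina, NL in blue and LD in orange, for *Fgf2*, *Fgf1*, *Fgfr1* and 5 genes of the pathway lists. LD-1 and LD-7 are highest for *Fgf2* and *Fgf1*, while LD-4 and LD-6 are highest for *Fgfr1*, *Fgfrl1*, *Dusp6*, *Etv5* and *Sulf2*.

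Cell type markers also differed between the groups, and are counted here at an adjusted p under 0.01, which 17.0% of all genes tested passed. All 8 rod markers fell, from a sum of 8716 to 10606 FPKM under NL to 1335 to 2650 FPKM after LD, and 4 of 6 cone markers fell. In LD-4 and LD-6, with more *Fgfr1*, the rod sum was at most 1431 FPKM, and in LD-1 and LD-7, with more *Fgf2*, at least 2118. LD-8, with the least *Fgf2* of the LD retinas and *Fgfr1* at 6.49 FPKM, had the highest LD rod sum, 2650 FPKM. Of the glial markers, *Gfap* and *Aldh1l1* of the astrocyte list rose, 2 of 5 (sum 16.9 to 36.5 and 79.9 to 152 FPKM), and of the 8 Müller glia markers *Vim* rose by 2.02 on the log2 scale while *Glul* fell by 2.09 and *Abca8a* fell by 0.75, with the sum at 1125 to 1350 FPKM under NL and 619 to 863 after LD. In mice of another strain and after a longer exposure, the paper saw GFAP in Müller glia too. The rise of *Gfap* therefore cannot be assigned to astrocytes alone. Of 8 microglia and macrophage markers 5 rose (18.2 to 29.3 and 37.8 to 86.6 FPKM), and of 6 endothelial markers *Kdr* rose. None of 8 ganglion cell markers (243 to 287 and 236 to 271 FPKM), 7 amacrine cell markers, 10 pigment epithelium markers (66.3 to 161 and 71.9 to 130 FPKM) or 5 pericyte markers passed an adjusted p under 0.01. Of 7 bipolar cell markers *Otx2* fell, and of 4 horizontal cell markers *Sept4* fell. Lens markers were near 0, at most 0.716 FPKM in all, as were the cornea and iris or ciliary body markers, at most 0.605. In sections, the paper saw no obvious retinal degeneration after 1 day of this light, and significant degeneration after a longer exposure. The part of these shifts in the FGF values was not tested. From the RNA of whole retinas alone, fewer cells of a type and less RNA per cell cannot be told apart.

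Among the 17 other FGF and FGF receptor genes of the table, 10 were tested and 1, *Fgfrl1*, passed an adjusted p under 0.01. Of all genes tested, 17.0% passed this limit. It encodes a receptor that binds FGF but has no kinase domain. Its level was 1.97, 1.98, 1.66, 1.71 and 1.84 FPKM in NL-1, NL-4, NL-5, NL-7 and NL-8 and 2.70, 3.39, 3.37, 2.62 and 2.36 FPKM in LD-1, LD-4, LD-6, LD-7 and LD-8. The groups did not overlap, and the log2 fold change was 0.62 (standard error 0.12, limma adjusted p = 0.00265, from 8.04e-04 to 0.0399 over the alternatives). *Fgf11*, a further homologous factor, was the most abundant FGF gene of the table under NL and came after *Fgf2* in the LD mean, with 24.9 ± 2.81 FPKM in NL and 22.0 ± 4.09 in LD retinas (SD, n = 5 each; log2 fold change -0.19, adjusted p = 0.312). In LD-4, LD-6 and LD-8 *Fgf11* was above *Fgf2*, at 24.1 FPKM or more against at most 17.6 FPKM. It was below *Fgf2* only in the close pair LD-1 and LD-7, on which the order of the LD means rests. The lowest values of *Fgf11*, 18.1 FPKM in LD-1 and 17.1 in LD-7, were again in the retinas with the most *Fgf2* RNA. Of the other ligand genes outside the 10, *Fgf22*, at 1.36 ± 0.247 and 1.25 ± 0.200 FPKM, was the only one with a mean above 1 FPKM. Of the 7 genes too low for testing, *Fgf4*, *Fgf16* and *Fgf20* had no reads in any retina, and *Fgf8* had between 3 and 10 reads in the NL and at most 3 in the LD retinas.

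The wider pathway was followed in 10 lists of 120 genes, of which 110 were tested. Of these 110, 11 were called, all of them higher after LD, against 6.51% of all genes tested called in either direction, and 31 passed an adjusted p under 0.01, 25 of them higher and 6 lower, which is 28.2% against 17.0%. None of the 31 changed direction under any alternative. The lists include *Fgf2* and the receptors themselves and were chosen with earlier results of these data known. These shares are therefore a description, and no list was tested as a set.

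Of 17 enzymes of heparan sulfate synthesis and editing, 3 rose, 1 fell and 13 did not pass, with a median log2 fold change of 0.10. *Sulf1* and *Sulf2* encode the sulfatases that trim 6-O-sulfate from heparan sulfate outside the cell. *Sulf2* was at 20.3, 20.2, 13.1, 13.4 and 19.2 FPKM in NL-1, NL-4, NL-5, NL-7 and NL-8 and at 43.5, 56.2, 53.9, 45.4 and 38.9 FPKM in LD-1, LD-4, LD-6, LD-7 and LD-8, a log2 fold change of 1.47 (standard error 0.16, limma adjusted p = 6.33e-05). *Sulf1* was at 5.89 ± 0.653 and 13.1 ± 1.90 FPKM (SD, n = 5 each) and rose by 1.14 on the log2 scale with a standard error of 0.11 (limma adjusted p = 3.02e-05). Neither gene had any overlap between the groups. *Hs6st1*, which adds the 6-O-sulfate, rose by 0.31 on the log2 scale (adjusted p = 0.00898, under 0.01 in 10 of the 27 alternatives and up to 0.0683), and *Ext1*, a subunit of the enzyme that builds the chain, fell by 0.64 (adjusted p = 6.07e-04).

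Of the 15 tested coreceptor and carrier genes, 4 rose, none fell and none was called, with a median of 0.26. *Gpc1* and *Gpc4*, glypicans that carry heparan sulfate on the cell surface, rose by 0.57 and 0.75 on the log2 scale (limma adjusted p = 8.88e-05 and 0.00609), the former under 0.01 in all 27 alternatives and the latter in 15. *Sdc4*, a syndecan, rose by 0.53 (adjusted p = 0.00110), from 16.5 ± 1.08 to 24.0 ± 3.11 FPKM, and *Flrt3*, a membrane protein that binds FGF receptors, by 0.48 (adjusted p = 4.34e-04). *Sdc3*, the most abundant of the list, was at 30.8 ± 1.89 FPKM in NL and 26.2 ± 2.12 in LD retinas (adjusted p = 0.0192).

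The 23 adaptors and members of the ERK cascade were split, with 5 higher, 5 lower and a median of 0.00. None was called. Those that rose were *Gab1*, a docking protein of receptor kinases (log2 fold change 0.90, limma adjusted p = 1.51e-04), *Nras* (0.68), *Map2k1*, which encodes MEK1 (0.43), *Shc1* (0.34) and *Plcg1* (0.26). Among those that fell were *Braf* (-0.30), *Pik3ca* (-0.30), *Sos2* (-0.26) and *Araf* (-0.26), the last also the most abundant, at 52.4 ± 3.27 and 43.8 ± 1.98 FPKM (SD, n = 5 each). *Gab1* stayed under 0.01 in all 27 alternatives, *Map2k1* in 26, *Nras* in 25 and *Plcg1* in 21. *Sos2* did so in 16, *Shc1* and *Pik3ca* in 14, *Araf* in 13 and *Braf* in 12.

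Of 18 genes of ERK feedback and FGF targets, 7 rose, 6 of them called, none fell and 11 did not pass, with a median of 0.44. *Dusp6*, the phosphatase that acts on ERK, was at 3.34, 2.40, 2.45, 2.57 and 3.47 FPKM in NL-1, NL-4, NL-5, NL-7 and NL-8 and at 6.77, 11.2, 10.4, 6.87 and 7.37 FPKM in LD-1, LD-4, LD-6, LD-7 and LD-8. Each LD retina was above each NL retina, and the log2 fold change was 1.53 (standard error 0.17, limma adjusted p = 8.84e-05). The immediate early genes *Fos* and *Egr1* rose by 2.14 and 2.23 on the log2 scale, *Ccnd1*, which encodes cyclin D1, by 1.52 and *Myc* by 3.61, from 0.318 ± 0.117 to 4.84 ± 0.663 FPKM. All 4 had adjusted p-values of at most 1.85e-04, and all respond to many other signals than FGF.

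*Etv5*, an ETS factor induced by FGF in many tissues, was the least firm of the 6. It was at 3.66, 5.34, 6.09, 6.16 and 3.75 FPKM in NL-1, NL-4, NL-5, NL-7 and NL-8 and at 7.64, 15.2, 14.6, 6.99 and 11.7 FPKM in LD-1, LD-4, LD-6, LD-7 and LD-8, a log2 fold change of 1.11 (limma adjusted p = 0.00701) that was called in 10 of the 27 alternatives, with adjusted p-values of 7.75e-04 to 0.129. The groups did not overlap, but without LD-4 and LD-6 it was not called. *Spred1*, a brake on RAS, rose by 0.50 without a call (adjusted p = 0.00906, under 0.01 in 10 of the 27 alternatives and up to 0.148). The Sprouty genes, the classical feedback inhibitors of FGF receptors, did not pass: *Spry2*, the most abundant gene of the list, was at 24.4 ± 1.16 and 26.2 ± 1.19 FPKM (SD, n = 5 each; log2 fold change 0.11, adjusted p = 0.119), and *Spry4* at 1.95 ± 0.467 and 2.80 ± 0.897 FPKM (adjusted p = 0.174).

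**Figure D5:**
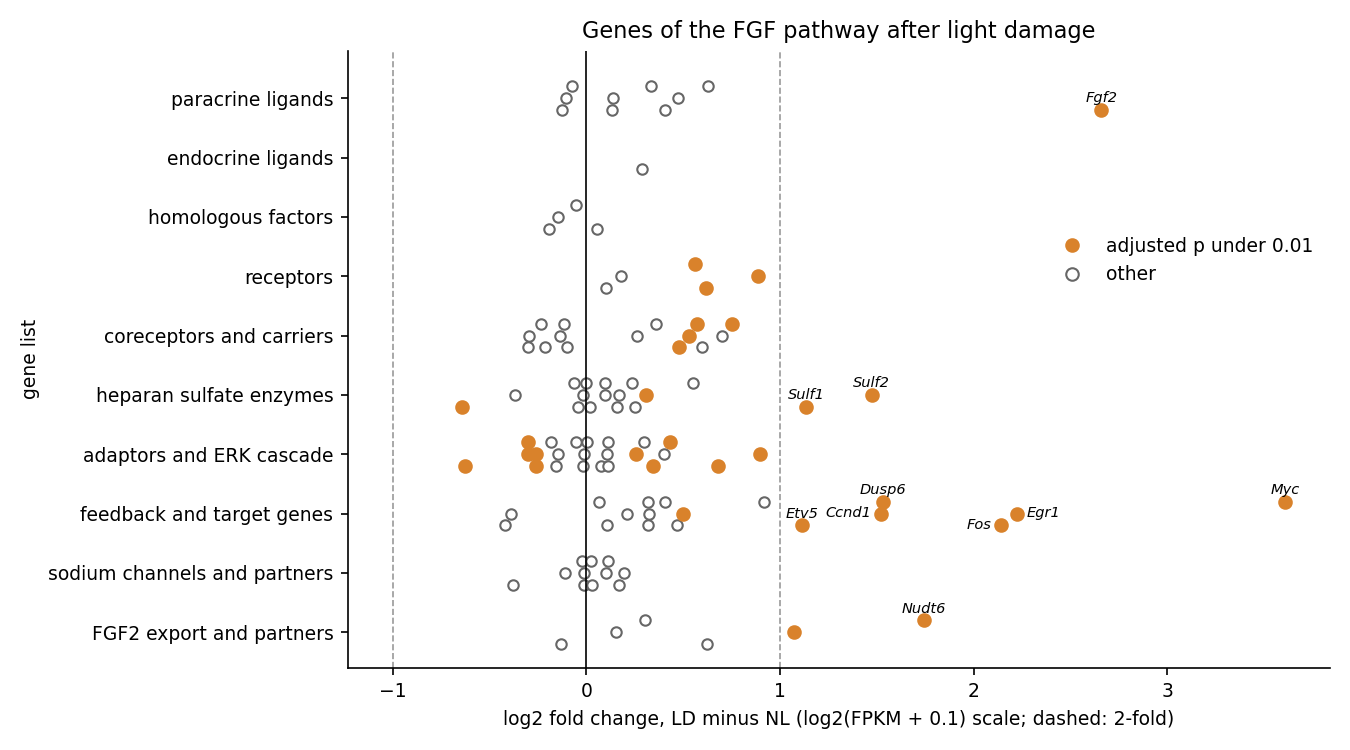
Log2 fold change (LD minus NL, log2(FPKM + 0.1) scale) of every tested gene of the 10 lists, orange where the adjusted p is under 0.01, with the called genes that the text describes named and dashed lines at 2-fold. The 11 called genes all lie to the right, 6 of them in the list of feedback and target genes, and the sodium channel list lies between -0.38 and 0.19.

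Of 11 tested sodium channel subunits and other partners of the homologous factors none passed an adjusted p under 0.01 in limma. Their log2 fold changes ran from -0.38 to 0.19, with a median of 0.03. *Mapk8ip2*, a scaffold protein that binds them and the most abundant of the list, was at 40.8 ± 2.16 and 41.6 ± 2.04 FPKM (SD, n = 5 each; adjusted p = 0.742). Among 6 genes tied to export and nuclear partners of FGF2, 2 were called higher, one of them *Nudt6* as described above, and 4 did not pass.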

How the data were processed

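RNA-seq of 10 retinas, 5 NL and 5 LD by their labels, was analysed. The authors deposited FPKM values per gene with positions that match GRCm38 (GENCODE M21 for 53585 of the 54532 genes, and for 9 of the 10 genes studied). The submitters' processing notes name TopHat2 2.0.9, Bowtie2 2.0.6 and mm8. The counting program, annotation and use of strand are not given in the sources used here. The methods name paired reads of 150 bases. The deposited FPKM times gene length was a whole number of reads, within 0.01, for 100% of values, so reads per gene were recovered. Bases shared between genes can shift FPKM.

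log2(FPKM + 0.1) was compared in limma 3.58.1 (R 4.3.3) with an intensity trend, for genes that reached 0.1 FPKM in 5 or more retinas, with Benjamini-Hochberg adjustment. Such fold changes understate the change of low genes. The fit was tested on simulated data. The thresholds are those of the study's text, which names no test for RNA-seq. Python 3.11.15 with scipy 1.17.1, numpy 2.4.6, pandas 2.3.3 and matplotlib 3.10.9 gave the exact permutation tests and the figures.

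The genes and lists were chosen with earlier results of these data known. Named are the 10 genes, genes that overlap them (of those in the *Fgfr2* span, only the count and those past the limit), the called and the most abundant genes of each list, and the 3 genes most like *Fgf2*. Genes named as part of a small count were chosen after their values were seen. Alternatives changed the pseudocount, filter, scaling, trend, threshold, replicate block and retinas included, and 5 more (*Xist*, pairs left out) were added after the values were seen. Some genes of the lists are counted but not reported here by name.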

Additional observations from a re-analysis of the deposited data

Results flagged for a closer look

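In the LD retinas the level of *Fgf12* was 12.8 FPKM in LD-4 against 11.4 to 11.7 FPKM in the other 4, a gap that is large for the spread of the group by Dixon's criterion. It was the only one of the 20 groups tested (10 genes in NL and in LD) to stand out in this way, and chance gives about 1 in 20. Without LD-4 the log2 fold change of *Fgf12* was -0.17 with a limma adjusted p of 0.0204, within a range of 0.0204 to 0.877 over the alternatives.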

How the results depend on the processing

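*Fgf2* was called in all 27 alternatives. The number of the 10 genes called went from 1 to 2, by *Fgfr1*, with TPM, with no factor per retina, and without LD-1 and LD-7, and at an adjusted p under 0.05 with no minimum fold change it was 4, while leaving out each retina in turn kept it at 1. TPM and the values without the factor per retina shifted the median of all genes by 0.10 and 0.12 on the log2 scale. Relative to that median *Fgfr1* was at 0.91 in both, against 0.90 in the deposited scaling, *Fgf9* at -0.06 and -0.05 and *Fgf14* at -0.04 and -0.03, so under these scalings the signs of *Fgf9* and *Fgf14* relative to the median did not turn. Of all genes, 1595 were called in the limma fit, 816 with a pseudocount of 1, 927 in the retinas without *Xist*, 6818 at an adjusted p under 0.05 with no minimum fold change, and 1379 to 1603 with 1 retina left out. Of the pathway lists, 41 genes passed that last threshold against 11 called, and 10 to 11 were called with 1 retina left out. With a replicate block over the 4 shared numbers, 808 genes were called, *Fgfr1* had an adjusted p of 0.0107 and *Fgfr4* 0.139, but the numbers did not pair the retinas (correlations of deviations -0.08 to 0.07, and 2 of the 4 correlated best with their own number). The sign turned for *Fgf9* (0.029 with TPM, 0.058 with no factor, 0.025 without LD-1 and LD-7), *Fgf14* (0.049 and 0.077 with TPM and no factor), *Fgf13* (-0.017 without LD-4 and LD-6), *Fgf1* (-0.047 without NL-5 and NL-7) and *Fgfr2* (-0.092 in the block and in the shared numbers without it, -0.039 to 0.25 with 1 retina left out, the former without NL-5, and -0.17 without NL-5 and NL-7), none past a threshold in any of these fits. *Fgfr4* lost an adjusted p under 0.01 in 17 of the 27, among them the closest pairs averaged (0.0754). *Fgfr2* and *Fgfr3* have no value with a mean of at least 1 FPKM. The cause was not tested. At 11 to 27 reads per retina, depth limits *Fgfr3*.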
